A study of Mus musculus with 8 samples.

Results

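The 34 genes described here encode the carnitine shuttle, the mitochondrial and peroxisomal enzymes of fatty acid oxidation, their electron acceptors and a few regulators. They were chosen by name, with earlier results of these data known, and every probe set annotated to 1 of them was taken. Of the 34 genes, 32 had a probe set, which gave 47 probe sets of 22690 in the table, and 45 probe sets of 31 genes were tested among 13638. Acsl1 and Ucp2 were not analysed here. Acot2, a mitochondrial thioesterase, had signals of 13.2 to 33.8, and its probe set and 1 of the 2 Acadl probe sets lay under the minimum mean signal. The members were divided into 17 mitochondrial genes, 8 peroxisomal genes, 3 of both organelles and 6 others. The set was labelled as oxidation and ketogenesis, but none of the 34 genes encodes an enzyme that makes ketone bodies, so it is called fatty acid oxidation genes here.

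RNA came from small intestine of female C57/Black6 mice, 6 weeks old, that were injected intraperitoneally each day for 5 days. One group was given the DMSO vehicle and one dexamethasone, a glucocorticoid, at 15 mg/kg. Another was given 10 umol/kg of DBZ, which inhibits gamma-secretase, and the last received both drugs at those doses (the combination). The labels give no segment of the gut. The columns labelled DBZ shared their values in 22684 probe sets and not in 6. They were therefore counted as 1 array of 7 distinct ones (n = 1), and every other group had n = 2.

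Long-chain fatty acids enter mitochondria as carnitine esters and are shortened there by a cycle of dehydrogenation, hydration, dehydrogenation and thiolysis, whose electrons pass to the respiratory chain. Peroxisomes run a parallel cycle that begins with an oxidase, handles very long and branched chains, and exports shortened products as carnitine esters. The nuclear receptor PPAR-alpha is known to activate genes of both cycles, and absorptive enterocytes are the main site of fatty acid uptake in the gut.

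Signals are scaled array intensities, each array having been brought to a trimmed mean of 250. A change is a difference of group means of log2(signal + 12.32), given with its SE, and understates the change of dim probe sets. A probe set was called where its limma p, adjusted over all tested probe sets, was under 0.05. In counts and for named genes, fell and rose mean called lower and called higher. The array number limits the precision of every value. In a whole-tissue sample, fewer cells of a type and less RNA per cell cannot be told apart.

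The vehicle arrays stood apart from the treated arrays. Their trimmed mean as deposited was 500, against 250 in the others. Without rescaling, the median change of all tested probe sets was -0.92 with dexamethasone, -0.999 with DBZ and -0.987 with the combination. Spearman correlations ran from 0.892 to 0.928 between vehicle and treated arrays, and from 0.939 to 0.972 between treated groups. The DBZ array had the highest 3' to 5' signal ratio for Gapdh, 1.80 against 0.905 to 1.22. Position markers also differed. The summed signal of 6 proximal markers was 13667 to 18147 with vehicle, 4756 to 5047 with dexamethasone, 5926 with DBZ and 7614 to 8195 with the combination, and 3, 3 and 2 of the 5 tested fell. That of 4 ileal markers was 1195 to 1395 with vehicle, 5279 to 12933 with dexamethasone, 14870.1 with DBZ and 2584 to 2706 with the combination, and 3, 3 and 2 of 4 rose. Their part in the differences from vehicle below was not tested, and treatment cannot be told apart from whatever else set the vehicle arrays apart.

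Markers of other tissues were read from the same arrays. The summed signal of the smooth muscle list was 6807 to 9499.8 with vehicle, 15790.4 to 23116 with dexamethasone, 19439 with DBZ and 14319 to 15577 with the combination, and 6, 4 and 3 of 7 markers rose. The fibroblast list had 1656 to 3334 with vehicle, 5808 to 7361 with dexamethasone, 5615 with DBZ and 5676 to 5799 with the combination, and 6, 4 and 4 of 6 rose. The adipocyte list had 477 to 1629, 2839 to 3744, 1573 and 887 to 1339 in the same order, and 4 of 5 tested markers rose with dexamethasone, none with DBZ or the combination. The enterocyte list had 72229 to 77634, 55558 to 63549.9, 77706 and 66591 to 93515, and 2, 2 and 1 of 10 fell. Of the hepatocyte list Alb did not exceed 27.8, but the sum was 3059 to 3727 with vehicle, 1677 to 2569 with dexamethasone, 1194 with DBZ and 1507 to 2620.2 with the combination, most of it from Cps1, which enterocytes also express. Of 3 tested hepatocyte markers 1 fell with dexamethasone and 1 with DBZ. The lymphocyte list had 432 to 672, 292 to 295, 722 and 259 to 359, and the pancreatic acinar list 216 to 637, 173 to 315, 183 and 211 to 238, with 0 of 4 and 0 of 2 tested called. The part of these shifts in the results below was not tested.

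Among the members, the probe sets that passed the test against vehicle were all lower, and more of them passed with dexamethasone than with the other treatments. With dexamethasone, 8 of 45 probe sets were called lower and 0 higher, and 19 had an unadjusted p under 0.05. Called or not, 33 had a negative change and 12 a positive one, beside 6531 and 7107 of all 13638 tested. Of all tested probe sets 12.0% were called, 4.82% lower and 7.22% higher. The 8 member probe sets belonged to Bbox1, Ehhadh, Acaa1b, Acaa1a, Acaa2, Pex11a, Crot and Crat. With DBZ, 2 of 45 fell, Bbox1 and Ehhadh, and 11 had an unadjusted p under 0.05, where 8.34% of all were called, 4.60% lower and 3.74% higher. With the combination, 2 of 45 fell, again Bbox1 and Ehhadh, and 12 had an unadjusted p under 0.05, where 7.44% of all were called, 3.06% lower and 4.38% higher. Of all 13638 tested probe sets, 3665, 3596 and 3295 had an unadjusted p under 0.05 with dexamethasone, DBZ and the combination. In DBZ and the combination the members' share was near the background and is no result about the set. The median change of the 45 probe sets was -0.30, -0.12 and -0.15 in these comparisons, beside 0.02, -0.05 and -0.04 over all tested probe sets. The gap between them depended on the vehicle arrays. With the combination it went from -0.11 to -0.24 without vehicle replicate 1 and to -0.01 without vehicle replicate 2, and with DBZ from -0.07 to -0.16 and -0.03. These comparisons share the vehicle arrays.

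**Figure D1:**
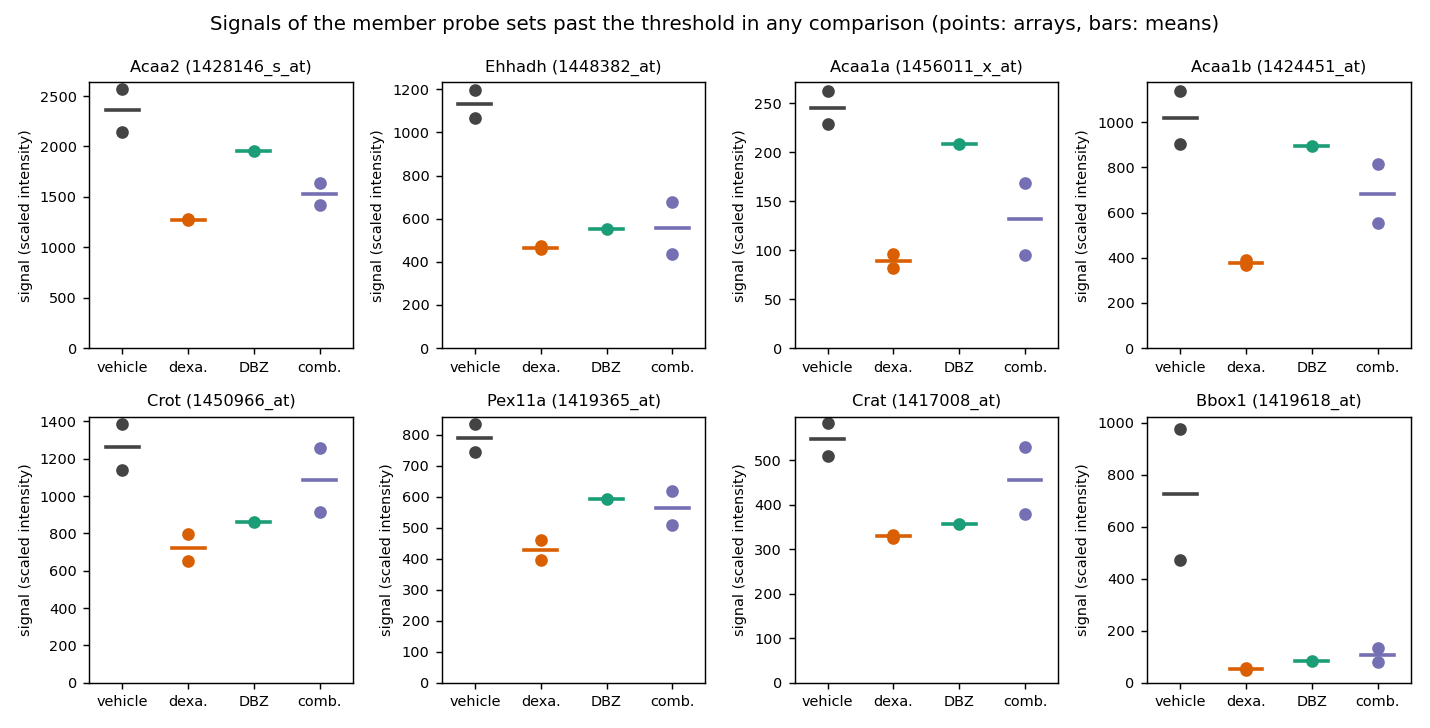
Scaled signal (y axis, from 0) of the 8 member probe sets that passed the test in any comparison, in each of 7 arrays (points) with group means (bars). In every panel both dexamethasone arrays lie under both vehicle arrays.

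Promoter sequence was examined because several peroxisomal members fell together. RefSeq windows (GRCm38.p6) of 250 bases before to 50 after the start were found for 30 of 34 members. The direct repeat AGGNCANAGGNCA, the form PPAR-alpha binds with its partner, was in 0 of 30 on either strand and in 0.381% of 32851 windows. Its core AGGTCA was in 3 of 30 (Acadm, Acadvl and Cpt1a), against 16.3% of windows. AGAACA, a short element of the glucocorticoid receptor, was in 4 of 30 (Bbox1, Hadh, Acot1 and Acsl5), against 19% of windows. CCAAT was in 14 of 30, and in 4 of 7 peroxisomal members with a window (Ehhadh, Crot, Acaa1a and Acaa1b), against 37.4% of windows. A match is a description of letters, and no match says only that the letters are not in the window.

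The 120 bases before the start of 5 genes are shown because they are members with a probe set that fell with dexamethasone and with a marked motif in that stretch, chosen after the values were seen. Pex11a also had a probe set that fell, and its window held none of the motifs searched. Acaa2 and Crat had one too, but no window was found for them. Matches elsewhere in the windows, such as another AGAACA of Bbox1, are not shown. Capitals mark AGAACA in Bbox1, and CCAAT or its reverse complement ATTGG in the others. The stretches are chr2:110305726-110305845 for Bbox1, chr16:21787835-21787954 for Ehhadh, chr5:8997147-8997266 for Crot and chr9:119157094-119157213 for Acaa1b, all on the minus strand, and chr9:119341174-119341293 for Acaa1a on the plus strand.
Bbox1: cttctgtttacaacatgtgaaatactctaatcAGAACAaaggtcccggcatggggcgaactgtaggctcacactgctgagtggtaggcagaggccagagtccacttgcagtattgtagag
Ehhadh: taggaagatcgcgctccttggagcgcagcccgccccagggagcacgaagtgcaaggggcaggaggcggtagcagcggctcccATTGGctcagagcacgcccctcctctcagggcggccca
Crot: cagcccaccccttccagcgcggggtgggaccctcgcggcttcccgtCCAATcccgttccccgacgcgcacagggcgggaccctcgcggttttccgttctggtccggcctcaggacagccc
Acaa1a: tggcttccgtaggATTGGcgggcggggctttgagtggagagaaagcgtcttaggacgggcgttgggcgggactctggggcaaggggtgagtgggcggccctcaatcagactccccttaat
Acaa1b: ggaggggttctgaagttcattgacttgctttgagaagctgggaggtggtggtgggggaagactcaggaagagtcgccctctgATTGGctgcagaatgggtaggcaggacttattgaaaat

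The member with the largest change was Bbox1, the gamma-butyrobetaine hydroxylase that makes carnitine in the last step of its synthesis. Its signals were 473 and 975 with vehicle, 58.9 and 49.2 with dexamethasone, 85.3 in the DBZ array, and 135 and 80.4 with the combination. All 5 treated arrays lay under both vehicle arrays, and the vehicle arrays also differed from each other. Bbox1 fell in all 3 treatments, with log2 changes of -3.39 ± 0.34 for dexamethasone (SE, adjusted p = 0.000616), -2.83 ± 0.42 for DBZ (adjusted p = 0.00637) and -2.57 ± 0.34 for the combination (adjusted p = 0.00357). As ratios of mean signals, vehicle was 13.4, 8.49 and 6.73 times the 3 treated groups in that order.

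Among the carnitine shuttle genes none was called in any comparison. Cpt1a, the liver-type transferase that is the regulated entry step, had signals of 727 and 570.5 with vehicle, 1132 and 855 with dexamethasone, 446 in the DBZ array, and 618 and 619 with the combination. Both dexamethasone arrays lay above both vehicle arrays and the DBZ array under all others. The change was 0.60 ± 0.20 with dexamethasone (adjusted p = 0.0767) and -0.52 ± 0.24 with DBZ (adjusted p = 0.204). The other 2 Cpt1a probe sets gave -0.41 and 0.28 with dexamethasone. Slc25a20, the carrier that exchanges acylcarnitine for carnitine across the inner membrane, had signals of 677 and 1028 with vehicle, 1160 and 917 with dexamethasone, 1673 in the DBZ array, and 1065 and 882 with the combination. Its DBZ array was the highest, with a change of 0.99 ± 0.28 (adjusted p = 0.0544), and its second probe set gave 0.28 there. Without vehicle replicate 2, only the lower vehicle signal of 677 remained as reference, and the first gave 1.29. Cpt2, which returns the acyl group to coenzyme A inside the mitochondrion, changed by 0.11 with dexamethasone, -0.01 with DBZ and 0.15 with the combination.

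The acyl-CoA dehydrogenases, which start the mitochondrial cycle for chains of different length, gave changes of -0.34 to 0.11 over the 3 treatments, none called. Acadm, the medium-chain enzyme, had signals of 1678 and 1873 with vehicle, 1401 and 1433 with dexamethasone, 1635 in the DBZ array, and 1452 and 1420 with the combination. Every treated array was under both vehicle arrays, but the changes of -0.32 ± 0.16, -0.12 ± 0.19 and -0.30 ± 0.16 did not pass (adjusted p = 0.226, 0.744 and 0.271). Acadvl, the very long-chain enzyme, changed by 0.06, 0.11 and 0.03, with a 95% interval of -0.29 to 0.41 for dexamethasone. Acadl, the long-chain enzyme, changed by -0.16, -0.16 and -0.15, and Acads, the short-chain enzyme, by -0.02, -0.11 and -0.34.

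The trifunctional protein, made of Hadha and Hadhb, carries the later steps for long chains. Hadha had signals of 933 and 830.1 with vehicle, 975 and 969 with dexamethasone, 873 in the DBZ array, and 958 and 1083 with the combination. These groups lay close together, and the changes were 0.14 (95% interval -0.22 to 0.50), -0.01 (-0.46 to 0.43) and 0.21. Hadhb changed by 0.28, -0.10 and 0.26, and its other probe set had the opposite signs, -0.16, 0.14 and -0.08, none called. Hadh, the dehydrogenase for shorter chains, changed by -0.35, 0.04 and -0.13. Another Hadh probe set gave -0.88 with dexamethasone (adjusted p = 0.0859), from signals of 261 and 558 with vehicle against 205 and 199. Without vehicle replicate 1, only the vehicle signal of 558 remained. The change was then -1.42 with dexamethasone, -1.19 with DBZ and -0.89 with the combination. This probe set and the Hadh probe set of highest mean signal end in _x_at, a kind whose probes can bind related transcripts. The remaining Hadh probe set, with a mean signal of 4354, changed by -0.26, -0.12 and 0.01, none called.

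Acaa2, the mitochondrial thiolase, was the mitochondrial member that fell with dexamethasone. Its signals were 2148 and 2571 with vehicle, 1268 and 1279 with dexamethasone, 1956 in the DBZ array, and 1421 and 1640 with the combination. Both dexamethasone arrays were lowest, and all treated arrays lay under both vehicle arrays. The change was -0.88 ± 0.17 with dexamethasone (adjusted p = 0.0108), -0.26 ± 0.21 with DBZ (adjusted p = 0.458) and -0.62 ± 0.17 with the combination (adjusted p = 0.0564). The combination change passed under quantile normalisation (-0.65) and a stricter minimum signal (-0.62). Its other 2 probe sets gave -0.54 and -0.47 with dexamethasone and -0.59 and -0.73 with DBZ, none called (adjusted p = 0.183 and 0.0676 with DBZ), against -0.26 for the called probe set. The called one ends in _s_at, a kind whose probes can match several transcripts. The call was lost without vehicle replicate 2 (-0.75) and without dexamethasone replicate 1 (-0.87).

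Unsaturated fatty acids need auxiliary enzymes. Decr1, the 2,4-dienoyl-CoA reductase, changed by -0.55 ± 0.17 with dexamethasone (adjusted p = 0.0715), -0.29 with DBZ and -0.18 with the combination. Its second probe set gave -0.50, -0.89 (adjusted p = 0.0601) and -0.33. Without vehicle replicate 1, only the higher vehicle signal of 2019 remained as reference, and the first gave -0.73 with dexamethasone. Eci1, the mitochondrial enoyl-CoA isomerase, changed by -0.16, -0.45 and -0.21. Ech1 and Eci2, isomerases found in both organelles, gave changes of -0.10 to 0.10. The electron transfer flavoprotein, which takes electrons from the dehydrogenases, has the subunits Etfa and Etfb. Etfa changed by -0.37, -0.56 and -0.33, and Etfb by 0.32, 0.67 and 0.51, and neither passed. Etfdh, which hands those electrons to ubiquinone, changed by -0.56 ± 0.17 with dexamethasone (adjusted p = 0.0576), -0.44 and -0.30.

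**Figure D2:**
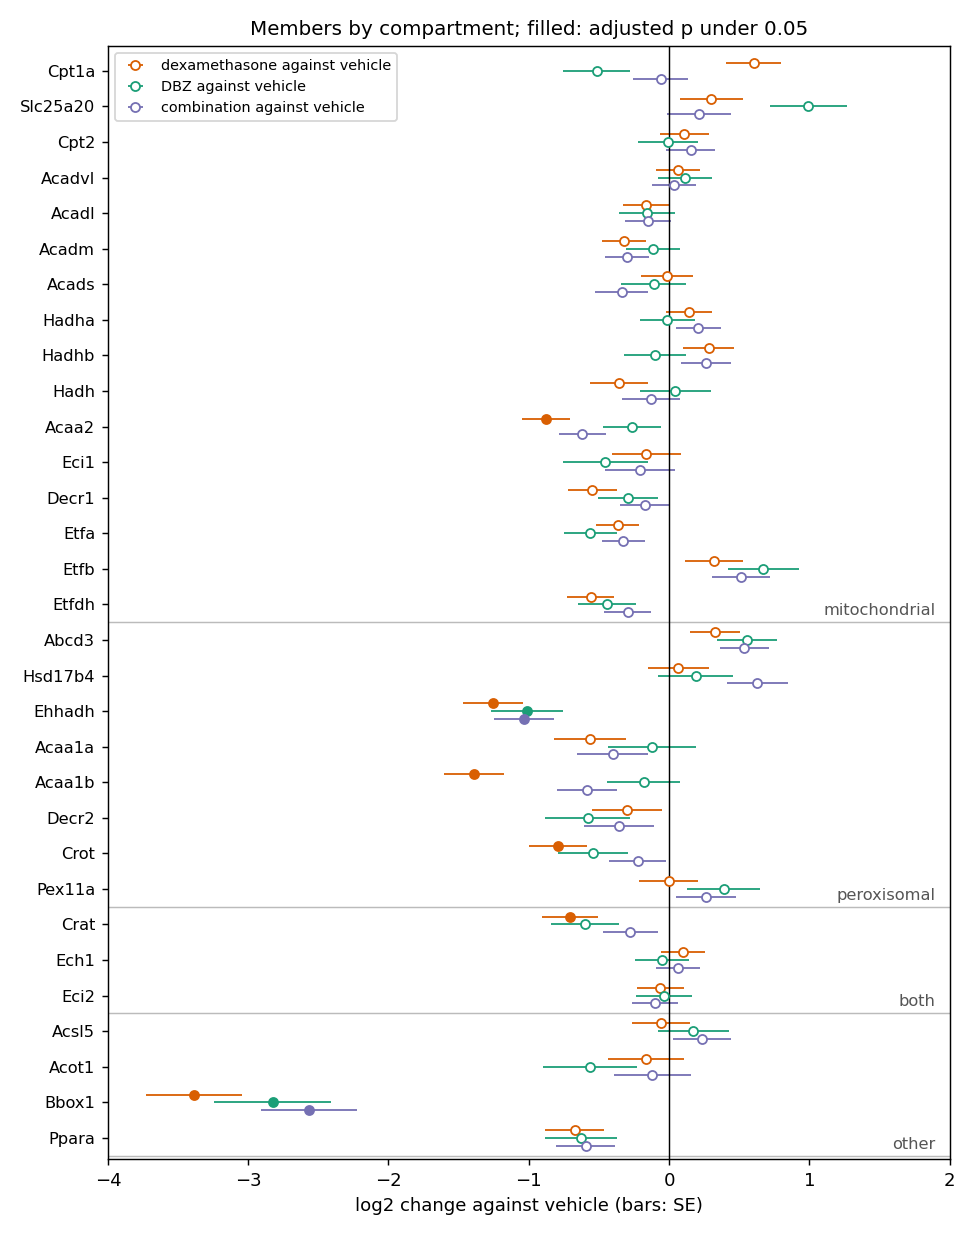
Log2 change against vehicle (x axis, bars SE) of the 31 tested members, 1 probe set each (that with the highest mean signal), by compartment and treatment. Filled points passed the test. Of the mitochondrial members 1 point is filled, that of Acaa2 with dexamethasone, while Ehhadh and Bbox1 are filled in all 3 treatments.

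Of the peroxisomal members, Ehhadh fell in all 3 comparisons. It encodes the bifunctional enzyme of the peroxisomal cycle, with hydratase and dehydrogenase activity. Its signals were 1066 and 1194 with vehicle, 458 and 473 with dexamethasone, 553 in the DBZ array, and 676 and 438 with the combination. Every treated array lay under both vehicle arrays. The change was -1.25 ± 0.21 with dexamethasone (adjusted p = 0.00582), -1.01 ± 0.26 with DBZ (adjusted p = 0.0427) and -1.03 ± 0.21 with the combination (adjusted p = 0.0193), or vehicle means 2.43, 2.04 and 2.03 times the treated. The DBZ call was lost without either vehicle array (-1.09 and -0.93) and without either dexamethasone array, and also with no filter, no intensity trend or a replicate block. The combination call was lost without vehicle replicate 2 (-0.95) without combination replicate 2 (-0.73) and with no intensity trend.

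The peroxisomal thiolases Acaa1a and Acaa1b, which are close relatives, each had a probe set that fell with dexamethasone. Acaa1b had signals of 901 and 1137 with vehicle, 388 and 368 with dexamethasone, 892 in the DBZ array, and 814 and 552 with the combination. The dexamethasone arrays lay under all others, with a vehicle mean 2.70 times theirs. Acaa1b changed by -1.39 ± 0.21 with dexamethasone (adjusted p = 0.00405), -0.18 ± 0.26 with DBZ (adjusted p = 0.706) and -0.59 ± 0.21 with the combination (adjusted p = 0.129). Both Acaa1a probe sets end in _x_at, a kind whose probes can bind related transcripts. One had signals of 229 and 262 with vehicle, 81.6 and 96.5 with dexamethasone, 209 in the DBZ array, and 168 and 95.2 with the combination. Both dexamethasone arrays and 1 combination array were low. Its change with dexamethasone was -1.35 ± 0.27 (adjusted p = 0.0116), while the other Acaa1a probe set gave -0.56 ± 0.26 (adjusted p = 0.192). Without vehicle replicate 2 (-1.25) or dexamethasone replicate 1 (-1.24) the called probe set no longer passed.

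Crot, the octanoyltransferase that prepares shortened acyl groups for export from peroxisomes, had signals of 1140.2 and 1386 with vehicle, 649.96 and 799 with dexamethasone, 858 in the DBZ array, and 1257 and 917 with the combination. The dexamethasone arrays and the DBZ array lay under vehicle, but 1 combination array did not. Crot changed by -0.79 ± 0.21 with dexamethasone (adjusted p = 0.0351), which passed, by -0.54 ± 0.25 with DBZ (adjusted p = 0.203) and by -0.23 ± 0.21 with the combination (adjusted p = 0.537). Crat, the acetyltransferase of mitochondria and peroxisomes, had signals of 510.3 and 585 with vehicle, 332 and 327 with dexamethasone, 357 in the DBZ array, and 530.0 and 380.0 with the combination. Its dexamethasone arrays were lowest, and its change of -0.71 ± 0.20 passed (adjusted p = 0.0459). With DBZ it gave -0.60 ± 0.24 and with the combination -0.28 ± 0.20, neither called. Both calls lay close to the threshold, and were lost with no filter, no intensity trend or a replicate block. They were also lost in fits with fewer arrays. Leaving out either combination array, which does not enter the change, kept Crat at -0.71. Without vehicle replicate 2, dexamethasone replicate 1 or dexamethasone replicate 2, Crot gave -0.65, -0.65 and -0.94, none called. Crat was not called with any 1 of the 6 vehicle, dexamethasone or combination arrays left out, with changes of -0.61 to -0.80.

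Pex11a, which promotes the division of peroxisomes, had probe sets that disagreed. One had signals of 835 and 746 with vehicle, 397 and 462 with dexamethasone, 594 in the DBZ array, and 619 and 509 with the combination, and changed by -0.86 ± 0.18 with dexamethasone (adjusted p = 0.0143). The other had 489.5 and 746 with vehicle and 564 and 644 with dexamethasone, and changed by -0.00 ± 0.21. The call of the first was lost without vehicle replicate 1 (-0.78) or dexamethasone replicate 1 (-0.76). Abcd3, a fatty acid transporter of the peroxisomal membrane, changed by 0.33, 0.55 and 0.54, and Decr2, the peroxisomal dienoyl-CoA reductase, by -0.30, -0.58 and -0.36, none called. Hsd17b4, the other bifunctional enzyme, changed by 0.07, 0.19 and 0.63 ± 0.22 by 1 probe set (adjusted p = 0.110 with the combination). Its other probe set gave -0.49, -0.09 and -0.02, and neither was called.

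**Figure D3:**
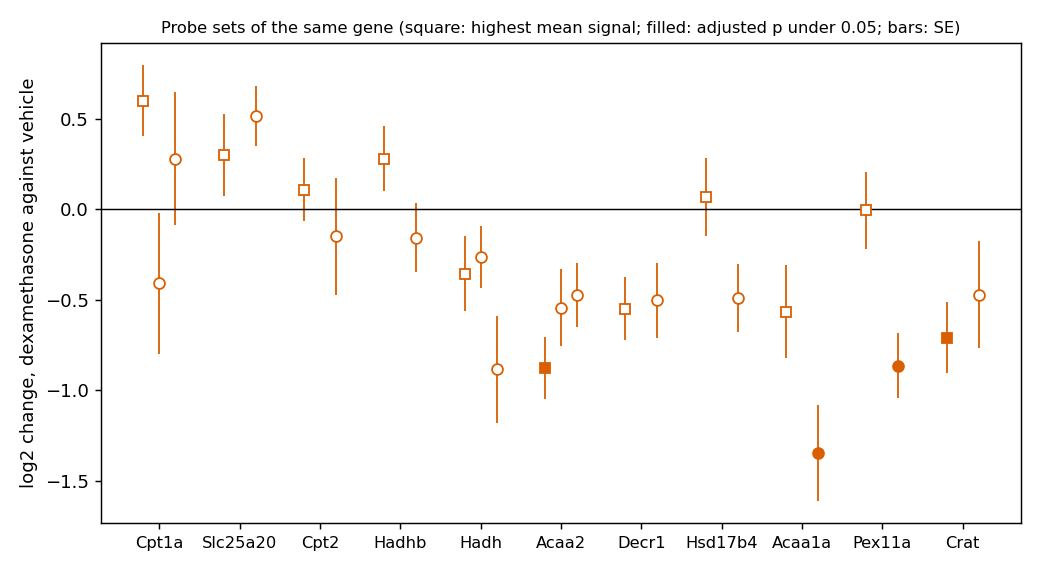
Log2 change with dexamethasone against vehicle (y axis, bars SE) of each tested probe set of the 11 members with more than 1. Filled symbols passed the test, and squares are the probe sets with the highest mean signal. Pex11a and Acaa1a each have 1 probe set called and 1 not.

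By gene, 3 of 8 tested peroxisomal members fell with dexamethasone (Ehhadh, Acaa1b and Crot), and 1 of 16 mitochondrial members did (Acaa2). Over all 8094 genes, taken by 1 probe set each, 5.29% fell and 6.93% rose with dexamethasone, so the mitochondrial count is at the background. With DBZ these shares were 3.88% and 3.93%, and with the combination 3.50% and 3.83%. The median change of the peroxisomal genes was -0.43, that of the mitochondrial genes -0.09 and that of all genes 0.02. With DBZ the medians were -0.15, -0.11 and -0.02, and with the combination -0.29, -0.14 and -0.05. The difference between the compartments was not tested. Several of these medians moved with single arrays. The mitochondrial median minus that of all tested probe sets, -0.113 with dexamethasone, was -0.0554 and -0.0382 without vehicle replicates 1 and 2, and -0.00975 without probe sets ending in _x_at or _s_at. With DBZ it went from -0.0592 to -0.0209 without vehicle replicate 2. With the combination it went from -0.099 to -0.00428 without vehicle replicate 2 and to -0.00585 without combination replicate 1. The peroxisomal median minus that of all tested probe sets went from -0.0961 with DBZ to -0.176 and -0.00277 without vehicle replicates 1 and 2. With the combination it went from -0.253 to -0.4 and -0.043 without combination replicates 1 and 2. In single arrays, the peroxisomal median relative to vehicle was -0.57 and -0.39 with dexamethasone, -0.15 in the DBZ array, and -0.09 and -0.42 with the combination. The mitochondrial median was -0.07, -0.13, -0.11, -0.18 and -0.03 in the same arrays. In the peroxisomal median the combination arrays differed from each other, with replicate 2 near the dexamethasone arrays and replicate 1 near vehicle. In the mitochondrial median replicate 1 was the lower.

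**Figure D4:**
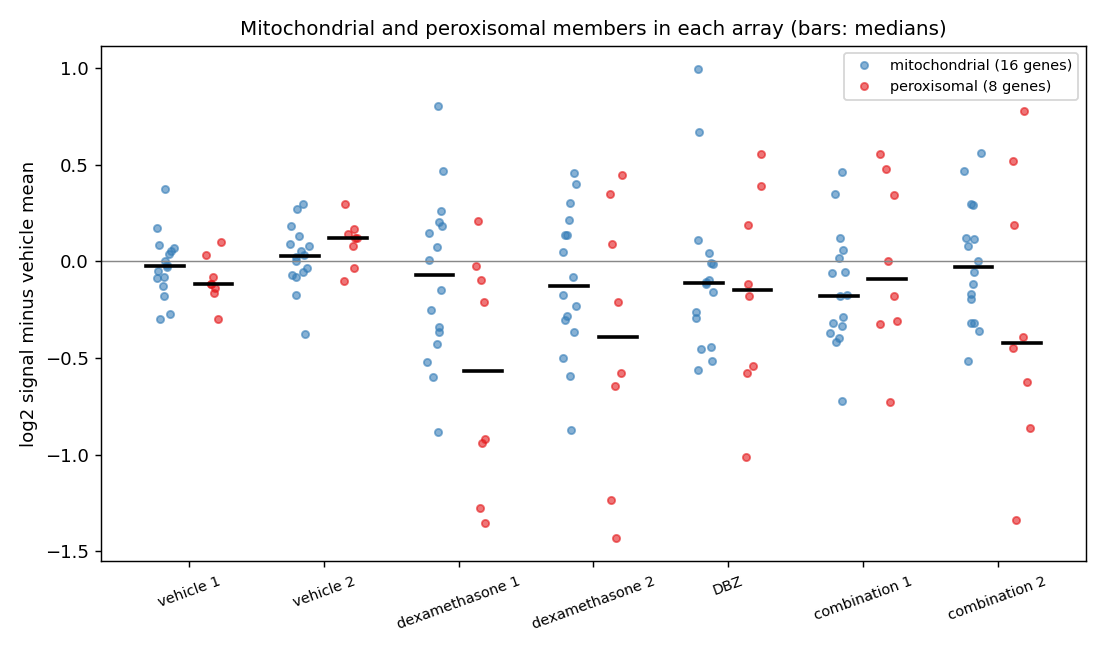
Log2 signal minus the mean of the vehicle arrays (y axis) of 16 mitochondrial and 8 peroxisomal members in each of 7 arrays. Points are genes and bars are medians. The peroxisomal medians are lowest in dexamethasone replicate 1 (-0.57) and combination replicate 2 (-0.42).

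Activation and hydrolysis of fatty acids were represented by Acsl5 and Acot1. Acsl5, an acyl-CoA synthetase, changed by -0.06, 0.17 and 0.23. Acot1, a cytosolic thioesterase, had signals of 72.2 to 142 and changed by -0.16, -0.56 and -0.12. Ppara, which encodes PPAR-alpha, had signals of 586 and 892 with vehicle, 443 and 455 with dexamethasone, 464 in the DBZ array, and 464 and 486 with the combination. All treated arrays lay close together under vehicle. Its changes of -0.67 ± 0.21, -0.63 ± 0.26 and -0.60 ± 0.21 did not pass (adjusted p = 0.0653, 0.156 and 0.116). Without vehicle replicate 1, only the higher vehicle signal of 892 remained as reference, and the changes were -0.97, -0.93 and -0.89.

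The combination was also set against each single drug. These changes do not use the vehicle arrays' levels, although the spread was estimated over all arrays. Against DBZ, 0 of 45 member probe sets were called by limma and 2 had an unadjusted p under 0.05, where 0.330% of all tested probe sets were called, 0.301% higher and 0.0293% lower. Against dexamethasone, 0 were called and 6 had an unadjusted p under 0.05, where 0.0293% of all were called, 0.0220% higher and 0.00733% lower. Of all 13638 tested probe sets, 1681 had an unadjusted p under 0.05 against DBZ and 1277 against dexamethasone. With only the treated arrays in the fit, 0 member probe sets were called in either comparison, while calls over all tested probe sets went from 41 higher and 4 lower to 20 and 2 against DBZ, and from 3 and 1 to 11 and 6 against dexamethasone. Against dexamethasone, Acaa1b was higher in the combination by 0.81 ± 0.21 (adjusted p = 0.28) and Crot by 0.57 ± 0.21 (adjusted p = 0.438). Bbox1 gave 0.82 ± 0.34 (adjusted p = 0.496). These genes had been called lower in the same dexamethasone arrays, so a positive change against dexamethasone is not independent of that call. Of the 8 peroxisomal genes 7 had a positive change there and the median was 0.24, beside -0.07 over all genes. Against DBZ, 3 of the 8 had a positive change and 5 a negative one, and the median was -0.02, beside -0.03 over all genes. Acaa1b gave -0.41 and Crot 0.32 against DBZ. Cpt1a gave -0.66 ± 0.20 against dexamethasone (adjusted p = 0.355). The 2 combination arrays and 2 dexamethasone arrays overlapped in Ehhadh, with a change of 0.22 (95% interval -0.25 to 0.69).

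The interaction asks whether the combination differs from the sum of the single drug changes. Unlike the comparisons of the combination with each single drug, it uses the levels of the vehicle arrays. Of the position markers, 4 of 4 ileal ones were called lower in it and 3 of 5 proximal ones higher. Their part in the member values was not tested. Of 45 member probe sets 1 passed, Bbox1, at 3.64 ± 0.54 (adjusted p = 0.00873), where 4.0% of all passed, 2.07% higher and 1.93% lower. The count is not above the background and is no result about the set. All 5 treated arrays were low in Bbox1, those with either drug alone included. The single drug changes of -3.39 and -2.83, both taken from the vehicle level, lead under the value of an absent signal on this scale. Their sum could therefore not be reached, and the positive value does not tell how the drugs act together. Without combination replicate 1 the value was 3.31 (adjusted p = 0.0529). The interactions of Ehhadh (1.23 ± 0.33, adjusted p = 0.0735) and Crot (1.11 ± 0.32, adjusted p = 0.0904) did not pass.

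Other genes of the pathway were read from lists drawn up for the pathway, with earlier results known. Of 38 tested further oxidation genes, 6 fell with dexamethasone, 5 with DBZ and 4 with the combination, and 0 rose, where 5.29%, 3.88% and 3.50% of all genes fell and 6.93%, 3.93% and 3.83% rose. Slc27a2, a very long-chain acyl-CoA synthetase, changed by -2.05 ± 0.24, -1.57 ± 0.30 and -1.29 ± 0.24 (adjusted p = 0.00119, 0.0154 and 0.0138). Acad11, a dehydrogenase of long chains, changed by -1.23, -1.67 and -0.83, each called. Phyh, which starts the oxidation of branched phytanic acid, changed by -1.11 ± 0.19 with dexamethasone (adjusted p = 0.00643). Of 4 tested ketone body genes, 2 fell with dexamethasone, 1 with DBZ and 2 with the combination. Bdh1, the hydroxybutyrate dehydrogenase, changed by -0.79, -1.32 and -0.91, each called. Acat1, the acetoacetyl-CoA thiolase, changed by -0.78 with dexamethasone and -1.03 with the combination, both called, and by -0.62 with DBZ (adjusted p = 0.111). Oxct1, which lets tissues use ketone bodies, gave 0.45, 0.47 and 0.18, and Slc16a1, a monocarboxylate transporter, 0.08, -0.34 and -0.30, none called.

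Of 18 tested PPAR-linked genes, 3 fell with dexamethasone and 0 rose, where 5.29% of all genes fell and 6.93% rose. Pdk4, the kinase that shuts off pyruvate dehydrogenase, changed by -2.32 ± 0.25 (adjusted p = 0.000841), and by 0.06 with DBZ. Cd36, a fatty acid uptake receptor, changed by -1.52 with dexamethasone, and Fabp1, a fatty acid binding protein, by -0.89. With DBZ, Angptl4, a lipoprotein lipase inhibitor, rose by 1.56 and Me1, malic enzyme, fell by 1.93. Of 15 tested peroxisome biogenesis genes, 2 fell with dexamethasone against the same 5.29%, among them Cat, catalase, at -1.54. Of 35 tested general mitochondrial genes, 6 fell with dexamethasone, 4 with DBZ and 3 with the combination, where 5.29%, 3.88% and 3.50% of all genes fell. Their median changes were -0.35, -0.34 and -0.23. Idh3a, of the citric acid cycle, changed by -0.68, -1.12 and -0.60, and Tfam, a mitochondrial DNA transcription factor, by -0.70, -1.15 and -0.80, all called.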

How the data were processed

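Small intestine RNA of 4 groups was hybridised to Affymetrix arrays. The authors deposited 1 intensity per probe set, made with MAS5 per the submitters' processing notes. No version of MAS5 is given in the sources used here, and there were no detection calls. It had 8 sample columns, and 0 were unused. The planned 2 DBZ arrays became 1, because their columns were copies, and the lone array was assumed to vary like the others. The labels call the replicates mice, and the p-values measure only the spread between these arrays.

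The arrays were brought to 1 trimmed mean (250, leaving out 2% at either end). The pseudocount was 12.32 (20th percentile of all arrays), and the minimum mean signal 38.82 (40th percentile), below which probe sets were dropped, as were 64 controls. Of 22690 probe sets 20393 had 1 gene symbol, 691 several and 1606 none, and 20364 were found in the RefSeq gene table. Group means were fitted with limma 3.58.1 in R 4.3.3 (intensity trend, 2-sided, Benjamini-Hochberg over 13638 probe sets, threshold 0.05), with 3 residual and 6.83 prior degrees of freedom. The fit was tested on simulated data.

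The members and lists were chosen with earlier results of these data known. Per-array values were given for members past the threshold and for Cpt1a, Ppara, Hadha, Acadm, Ehhadh, Acaa1a and Acaa1b. Of the other lists the 4 genes of smallest p were candidates. A gene was represented by its tested probe set of highest mean signal. Alternatives were the intensities as deposited, quantile normalisation, other pseudocounts, filters and variance models, a fit without probe sets open to cross-hybridisation, leaving out single arrays, and a replicate block.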

Additional observations from a re-analysis of the deposited data

Results flagged for a closer look

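The Bbox1 change in the combination differed from the sum of the separate changes by 3.64 on the log2 scale, past the threshold in the interaction test (adjusted p = 0.00873). Its signal was 473 and 975 with vehicle and 49.2 to 135 in the 5 treated arrays. The sum of the separate changes lay under the value of an absent signal on this scale, so it could not have been reached. The 1 array that ended the call was combination replicate 1, without which the value was 3.31 (adjusted p = 0.0529).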

How the results depend on the processing

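Bbox1, Ehhadh and Acaa1b kept their dexamethasone call in every alternative run, and the other 5 called probe sets lost it in at least 1. The count of called member probe sets with dexamethasone, 8 as reported, was 6 without a filter, without the intensity trend, without cross-hybridising probe sets and with the replicate block, 9 under the stricter minimum, and 3 to 9 with each array left out (4 without vehicle replicate 2, 3 without dexamethasone replicate 1). With DBZ the count of 2 became 1 without a filter, without the trend and with the replicate block, 3 under the stricter minimum, and 1 to 3 with an array left out (1 without either dexamethasone array). With the combination it was 1 without the trend, 3 under quantile normalisation and under the stricter minimum, and 1 to 4 with an array left out (4 without vehicle replicate 1, 1 without vehicle replicate 2 or combination replicate 2). The interaction count of 1 was 0 to 2 with an array left out (2 without vehicle replicate 1, 0 without combination replicate 1). Counts against DBZ and dexamethasone alone were 0 throughout. With only the treated arrays fitted, calls over all tested probe sets were 11 higher and 6 lower against dexamethasone, against 3 and 1 as reported, and 20 and 2 against DBZ, against 41 and 4. Against vehicle, calls over all tested probe sets moved as well. With dexamethasone, 985 higher and 657 lower as reported, they were 635 and 447 without a filter and 692 and 456 without the trend. With DBZ, 510 and 627 as reported, they were 273 and 265 without a filter and 291 and 387 without the trend. With the combination, 598 and 417 as reported, they were 391 and 262 without the trend. Leaving out an array changed them too, so member counts there are no result about the set. The replicate block was no pairing by design: deviations of same-numbered arrays correlated at 0.049, -0.122 and 0.115. Without the DBZ array, an alternative chosen after seeing the data, the counts for dexamethasone and the combination against vehicle stayed at 8 and 2. Over settings other than the deposited scale, 32 of 3915 single values lost a call and 13 gained one, among them Etfdh with dexamethasone (-0.56) and Slc25a20 with DBZ (0.99) under the stricter minimum. Using the intensities as deposited moved the median of all tested probe sets to -0.92, -0.999 and -0.987. It called 43, 38 and 42 of 45 member probe sets with dexamethasone, DBZ and the combination, and 36 in the interaction. All calls there were 201 higher and 9974 lower with dexamethasone, against 985 and 657 as reported. They were 129 and 9227 with DBZ, 132 and 10707 with the combination, and 6379 and 118 in the interaction. Of 270 member values 31 changed sign under it, counted only where a call was involved, by the scale shift built into those values. In dexamethasone against vehicle, they were Abcd3 -0.67, Cpt2 -0.88, Hsd17b4 -0.93, Slc25a20 -0.69, Slc25a20 -0.46, Acadvl -0.93, Hadhb -0.71, Etfb -0.67, Ech1 -0.90, Hadha -0.85. In DBZ against vehicle, they were Hsd17b4 -0.81, Slc25a20 -0.69, Acadvl -0.88, Acsl5 -0.83, Hadhb -0.85, Hadh -0.96. In the combination against vehicle, they were Abcd3 -0.46, Cpt2 -0.84, Slc25a20 -0.78, Slc25a20 -0.52, Acadvl -0.96, Hadhb -0.73, Acsl5 -0.77, Ech1 -0.93, Pex11a -0.72, Hadha -0.78, Hadh -0.99. In the interaction, they were Acadvl 0.85, Eci2 0.99, Hadhb 0.93, Cpt1a 0.84. Low signals rest on the pseudocount, and 7 arrays limit what can be called.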
